A study of Mus musculus with 16 samples.

Results

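The arrays described here are the 4 vehicle controls of 20 min, out of 16 samples in the series, and they were chosen by that label alone. Each sample was fallopian tube tissue from immature female C57BL/6N mice of 3.5 to 5 weeks that had received no hormone, with 6 tubes pooled per sample. The surrounding fat, vessels and broad ligament had been dissected away, and the opened and cut tubes were kept for 20 min in medium that held 0.01% ethanol, the solvent of the hormone, before freezing. The other 12 samples (progesterone at 100 nmol/L for 20 min or 2 h, and the controls of 2 h) enter no value below except through the common scaling of the arrays. The 4 pools carry the replicate names 27n, 26n, 12n and 22ob, and values of single pools are given in that order. All segments of the tube, from the ovarian end to the uterine end, were in each pool, so no value can be placed in 1 segment.

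The fallopian tube, called oviduct in the mouse, is a muscular duct that receives the ovulated oocyte, hosts fertilization and carries the embryo to the uterus. Its lining holds ciliated cells, whose beating moves the fluid and the oocyte, and secretory cells, which make the tubal fluid and its glycoproteins. Under the lining lie a connective tissue stroma with vessels and a coat of smooth muscle, and the outer face is covered by mesothelium. Progesterone and oestrogen act on these layers through receptors that work in the nucleus and at the membrane.

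Because the promoters of marker genes are referred to below, 4 of them are printed here for their place in the results. Each is the 250 bases before a RefSeq transcription start in the mouse build GRCm38.p6, written 5′ to 3′ on the strand of the gene. The first 3 belong to ciliary genes and have in capitals a match to the X-box, the motif bound by the RFX transcription factors that act in ciliated cells. The last belongs to the oviductal glycoprotein gene and has in capitals the oestrogen response half-site AGGTCA.
Dynlrb2 (chr8:116504765-116505014, plus strand): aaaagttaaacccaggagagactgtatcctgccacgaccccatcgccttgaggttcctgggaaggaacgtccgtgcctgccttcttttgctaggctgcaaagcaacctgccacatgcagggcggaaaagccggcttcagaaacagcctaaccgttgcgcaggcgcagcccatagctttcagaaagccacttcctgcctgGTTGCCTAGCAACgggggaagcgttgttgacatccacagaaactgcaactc
Dnaic1 (chr4:41569544-41569793, plus strand): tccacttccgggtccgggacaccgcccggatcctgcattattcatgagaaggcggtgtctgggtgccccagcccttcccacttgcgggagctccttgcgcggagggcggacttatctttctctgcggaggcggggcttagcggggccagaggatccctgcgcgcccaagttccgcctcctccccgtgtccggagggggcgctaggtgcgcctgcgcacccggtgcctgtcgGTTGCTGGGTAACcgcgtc
Spag16 (chr1:69826720-69826969, plus strand): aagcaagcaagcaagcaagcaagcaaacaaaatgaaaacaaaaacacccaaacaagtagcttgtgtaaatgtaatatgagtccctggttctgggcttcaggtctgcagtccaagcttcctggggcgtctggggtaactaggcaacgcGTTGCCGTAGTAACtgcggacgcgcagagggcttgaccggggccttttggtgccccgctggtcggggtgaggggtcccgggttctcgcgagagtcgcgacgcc
Ovgp1 (chr3:105973552-105973801, plus strand): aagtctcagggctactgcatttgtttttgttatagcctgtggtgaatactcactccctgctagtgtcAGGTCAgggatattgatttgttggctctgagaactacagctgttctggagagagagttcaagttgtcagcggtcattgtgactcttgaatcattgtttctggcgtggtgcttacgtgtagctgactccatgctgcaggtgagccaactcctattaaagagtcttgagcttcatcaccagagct
Dynlrb2 encodes a dynein light chain, Dnaic1 (Dnai1) an intermediate chain of the outer dynein arm, and Spag16 a protein of the central apparatus of the axoneme. Promoter windows of 300 bases (250 before and 50 after the start) were at hand for 25 of the 28 ciliary genes detected on all 4 arrays. The X-box was found on either strand in the windows of 6 of these 25 genes (Ccno, Dnaic1, Dynlrb2, Hydin, Lrrc23 and Spag16), which is 20.0% of their 30 windows against 1.53% of all 32851 windows. AGGTCA, searched on both strands, stood in 5 of 12 windows of the secretory genes (41.7%), those of C3, Ltf, Ovgp1 and Wfdc2, against 16.3% of all windows. A CArG box, the motif of serum response factor, was found in 0 of 9 windows of the smooth muscle genes and in 1.63% of all windows, and the forkhead motif GTAAACA was in 2 of the 30 ciliary windows against 3.65% of all. A match is a stretch of letters and says nothing about binding in these tissues.

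The array carried 25697 probes for 18138 gene symbols. A probe was called detected when its detection p-value, the share of the array's 798 negative control beads that were brighter, was below 0.05 on all 4 arrays. By this rule 12055 probes (46.9%) were detected and 10301 (40.1%) were detected on no array, with 3341 between. A probe of 9235 genes (50.9%) was detected, and for 6632 genes (36.6%) no probe was detected on any array. Single arrays detected 13381 to 13731 probes, their median signal was 116.5 to 147.1, and the log2 signals of any pair of the 4 arrays correlated across probes with a Pearson r of 0.988 to 0.993. Probes are not independent replicates, and the number of arrays limits the precision of every level.

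Levels are given as the mean log2 signal after quantile normalization, ± SD over the 4 pools. Detected probes had a median of 8.34 and probes detected on no array a median of 6.81, with 90% of the latter between 6.73 and 6.91, so values below about 7 are background. Of the detected probes, 40.5% lay below 8, 40.0% from 8 to 10, 15.7% from 10 to 12, 3.3% from 12 to 14 and 0.5% (55 probes) at 14 or above. The 100 brightest probes gave 13.7 to 14.8% of an array's summed signal. Probes bind their targets with different strength, so the order of brightness below is an order of signals and not of RNA amounts.

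**Figure D1:**
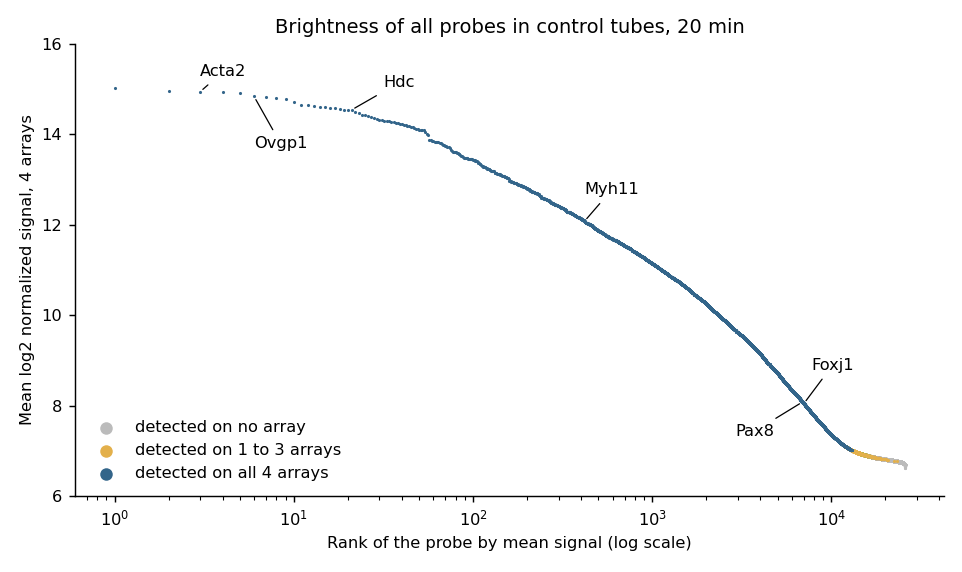
Mean log2 normalized signal of every probe over the 4 control arrays of 20 min (vertical axis) against its rank (horizontal axis, log scale), coloured by the number of arrays that detected it, with 6 genes marked at their brightest probe. Acta2, Ovgp1 and Hdc stand among the first 21 probes, whereas Pax8 and Foxj1 lie near 8, above the background that begins at about 7.

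The rank curve shows where the marker genes fall. Housekeeping functions filled much of its upper end: 37 of the 100 brightest probes were for cytosolic ribosomal proteins or copies of them, and so were 13 of the 30 brightest genes. Rplp1, a ribosomal stalk protein, was first at 15.02 ± 0.08. Ubb, a polyubiquitin gene, followed at 14.95 ± 0.05, Rpl41 at 14.94 ± 0.10, and the elongation factor gene Eef1a1 at 14.92 ± 0.06. The order among neighbours carries little weight, since only 1 of the 29 neighbouring pairs among the 30 brightest genes kept its order on all 4 arrays. Genes with near-identical copies, such as those for ribosomal proteins and tubulins, may share signal between copies.

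The 17 other genes of the 30 brightest included Acta2, Ovgp1 and Hdc. Acta2, the actin of smooth muscle, read 15.003, 14.92, 14.76 and 15.09 in the 4 pools and stood at rank 3. Ovgp1, the oviductal glycoprotein that coats the oocyte and embryo, read 14.76, 15.003, 14.74 and 14.85 and stood at rank 6. Hdc, histidine decarboxylase, which makes histamine, read 14.47, 14.55, 14.53 and 14.62 and stood at rank 19. By these probes, which lie near the top of the scale, pool 12n was the lowest for Acta2 and Ovgp1 and pool 27n for Hdc. A second Ovgp1 probe had another order, at 11.57, 11.20, 11.96 and 12.06, with 26n the lowest and 12n above 27n, so the order of the pools for Ovgp1 is not settled. The rest included the iron store gene Fth1 (14.65 ± 0.07), the interferon-induced membrane protein gene Ifitm3 (14.56 ± 0.04), the glutathione transferase gene Gstm2 (14.44 ± 0.03), Itm2b (14.63 ± 0.13), BC048546 (14.60 ± 0.14), the cyclophilin gene Ppia (14.31 ± 0.07), the ATP synthase gene Atp5b (14.29 ± 0.10) and Tuba1b (14.28 ± 0.31), an alpha tubulin gene. Tuba1b had the largest SD of the 30.

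The 5 marker genes of the tube were detected in every pool, as was 50.9% of all genes. Myh11, the myosin heavy chain of smooth muscle, was at 12.08 ± 0.57 (12.57, 12.47, 11.33 and 11.93). Pax8, a transcription factor of the secretory lineage, was at 8.08 ± 0.31 (7.75, 7.93, 8.20 and 8.45). Foxj1, the master regulator of motile cilia, was at 8.05 ± 0.14 (7.99, 8.20, 8.11 and 7.88). Both transcription factors stood above the background in every pool, so that the defining markers of muscle, secretory cells and ciliated cells were all present in the labelled tissue.

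**Figure D2:**
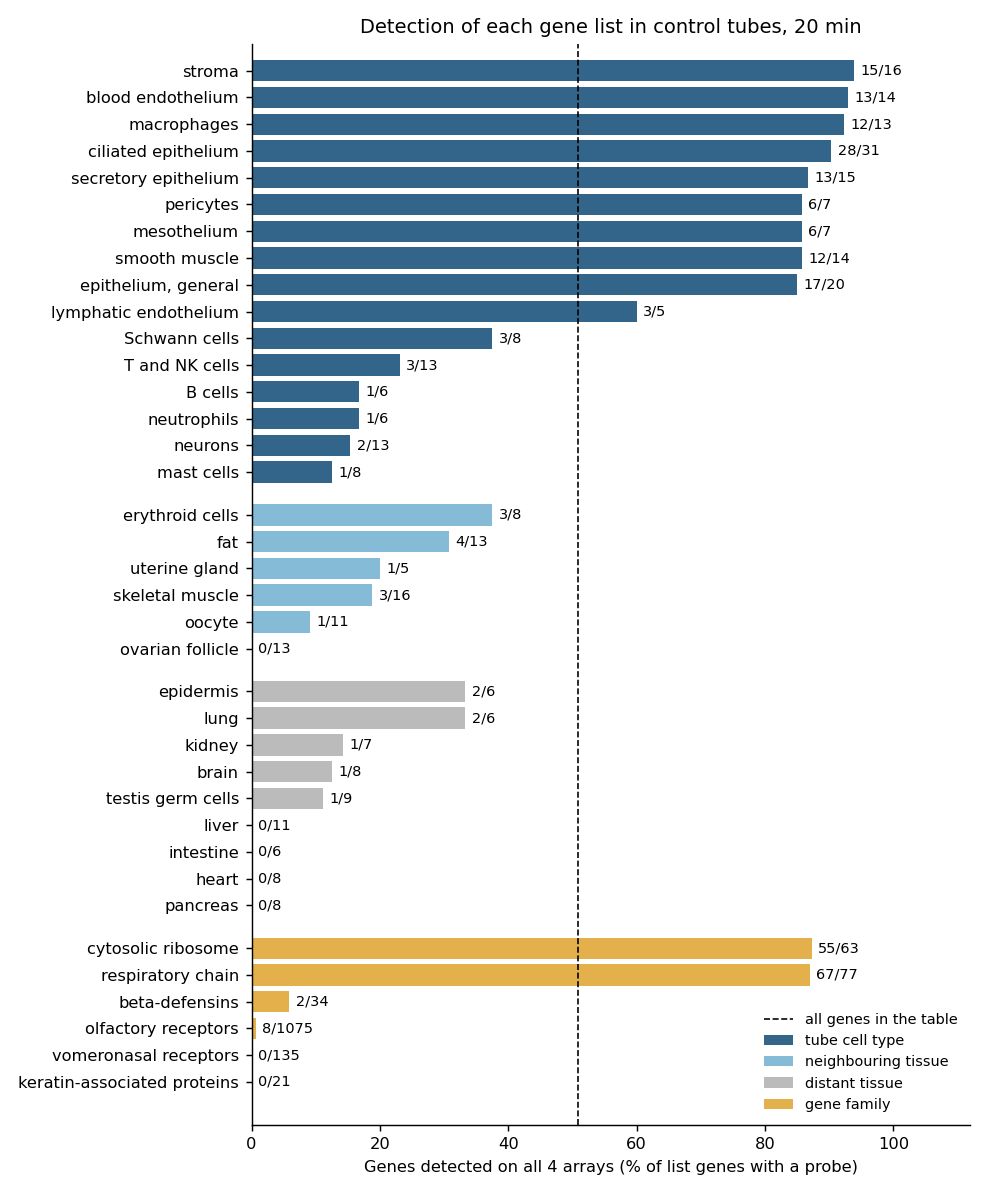
Share of the genes of each list that were detected on all 4 arrays (bars, in percent of list genes with a probe, with the counts beside them), grouped by kind of list; the dashed line is the share over all genes in the table, 50.9%. Lists of the tube's structural cell types lie above the line, and lists of other tissues and of receptors of the nose lie below the line. The lists were chosen with earlier results of these data known.

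Gene lists for 16 cell types that a tube can hold had 136 of 196 entries detected (69.4%), against 12 of 66 (18.2%) for 6 lists of neighbouring tissues, 7 of 69 (10.1%) for 9 distant tissues, and 50.9% of all genes. In the plot of detection by list, the cell types of the wall stood above the share of all genes, up to 93.8%. Nerve, lymphoid and granulocyte lists stood at 37.5% or below. The lists and their members were chosen with earlier results of these data known, so these shares describe the lists and test nothing.

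Of the 40 genes listed for ciliated cells, which include parts of the axoneme and regulators, 31 had a probe in the table used here. Of these, 28 (90.3%) were detected, against 50.9% of all genes. The list median was 9.94, where the median of all genes was 7.12. Dynlrb2 was the brightest at 13.03 ± 0.31, reading 13.38, 12.77, 13.22 and 12.76. Rsph1, a radial spoke protein, followed at 12.42 ± 0.25, reading 12.57, 12.25, 12.69 and 12.18. For both genes 27n and 12n were the higher pools, an order read from these same values and not tested. Other genes of the list had other orders, such as Cdhr3 (11.58, 11.32, 12.10 and 11.69) and Ccno (9.40, 9.41, 9.36 and 8.51). Nme5, of the radial spoke, was at 11.75 ± 0.26 and Cdhr3, a cadherin of ciliated airway cells, at 11.67 ± 0.32. Among the regulators of ciliated cells, Rfx2 was at 10.08 ± 0.21, Ccno, a cyclin-like protein needed to make many basal bodies, at 9.17 ± 0.44, and Foxj1 at 8.05. The probes for Rfx3 (6.90) and Spag17 (6.78) were detected on no array, and Trp73 was detected on 2 of 4. The 3 ciliary genes whose promoters are printed above read 13.03 (Dynlrb2), 9.41 ± 0.26 (Dnaic1) and 7.21 ± 0.02 (Spag16).

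Of 15 genes listed for secretory cells 13 were detected (86.7%, against 50.9% of all genes), several of them bright. After Ovgp1, the protease inhibitor gene Wfdc2 was at 13.70 ± 0.24 (13.83, 13.62, 13.96 and 13.40). Ltf, the iron-binding lactotransferrin that oestrogen induces in the mouse tract, was at 13.61 ± 0.50 (13.97, 12.86, 13.78 and 13.82). Pool 26n lay below the other 3 for Ltf, also by a second probe that was detected at only 7.39. The complement gene C3 was at 12.65 ± 0.20. Sox17, Lcn2 and Upk1a lay between 10.34 and 10.96. Pax2, the sister gene of Pax8, was detected by neither of its probes (6.85), and Spp1 was detected on 2 arrays. The demilune cell and parotid protein genes, chosen after their values were seen, were also bright: Dcpp2 was at 13.46 ± 0.57 (13.60, 12.68, 13.49 and 14.05), Dcpp3 at 13.29 ± 0.46 and Dcpp1 at 11.86 ± 0.65. All 3 were lowest in 26n and highest in 22ob, and since their sequences are alike their probes may read one another's transcripts.

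General epithelial genes were detected in 17 of 20 cases (85.0%, against 50.9% of all genes). Keratin 8 was at 12.78 ± 0.10, its partner keratin 18 at 11.43 ± 0.20, the tight junction gene Cldn3 at 11.28 ± 0.15 and keratin 19 at 10.88 ± 0.06. E-cadherin, Cdh1, was at 10.69 ± 0.24. The probes for Ehf (6.83) and the junction gene Jup (6.87) were detected on no array.

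Smooth muscle genes were detected in 12 of 14 cases, against 50.9% of all genes, and 6 of them were among the 1000 brightest of the 18138 genes. Actg2, the actin of visceral smooth muscle, was at 13.20 ± 0.48 and read 13.48, 13.49, 12.49 and 13.36. Mylk, the kinase that starts contraction, was at 12.68 ± 0.59 and read 12.99, 13.20, 11.85 and 12.67. Desmin, Des, read 11.42, 11.29, 10.34 and 11.10. Pool 12n was the lowest in each of these. Acta2 had 4 probes, all detected: the brightest at 14.94 ± 0.14, and the others at 13.19 ± 0.45, 12.56 ± 0.71 and 12.18 ± 0.68. The gap between the lowest and highest pool was thus smallest in the probe nearest the top of the scale, and over all detected probes the median SD was 0.08 at 14 and above against 0.16 from 8 to 12. Differences between pools may therefore be understated for the brightest genes. Cnn1 was detected on 3 arrays and Synpo2 on none.

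Of 16 stromal genes, 15 were detected (93.8%), where 50.9% of all genes were. Decorin, Dcn, was the brightest at 13.51 ± 0.15 (13.64, 13.60, 13.30 and 13.50), ahead of osteoglycin, Ogn, at 11.80 ± 0.33, vimentin, Vim, at 11.34 ± 0.15 and the collagen gene Col1a1 at 11.18 ± 1.07. Blood endothelium had 13 of 14 genes detected, with Esam at 10.85 ± 0.12, Egfl7 at 10.40 ± 0.11, Emcn at 10.08 ± 0.39 and Plvap, of fenestrated capillaries, at 9.57 ± 0.63. The probe for Kdr, a main receptor of vascular endothelial growth factor, was detected on no array (6.94). Lymphatic endothelium had 3 of 5, with Ccl21a at 9.86 ± 0.30 and with Prox1, its defining transcription factor, undetected by both probes. Pericyte genes were detected in 6 of 7 cases, the brightest being Mcam at 10.46 ± 0.47, and mesothelial genes in 6 of 7, the brightest being Upk3b at 9.78 ± 0.25.

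**Figure D3:**
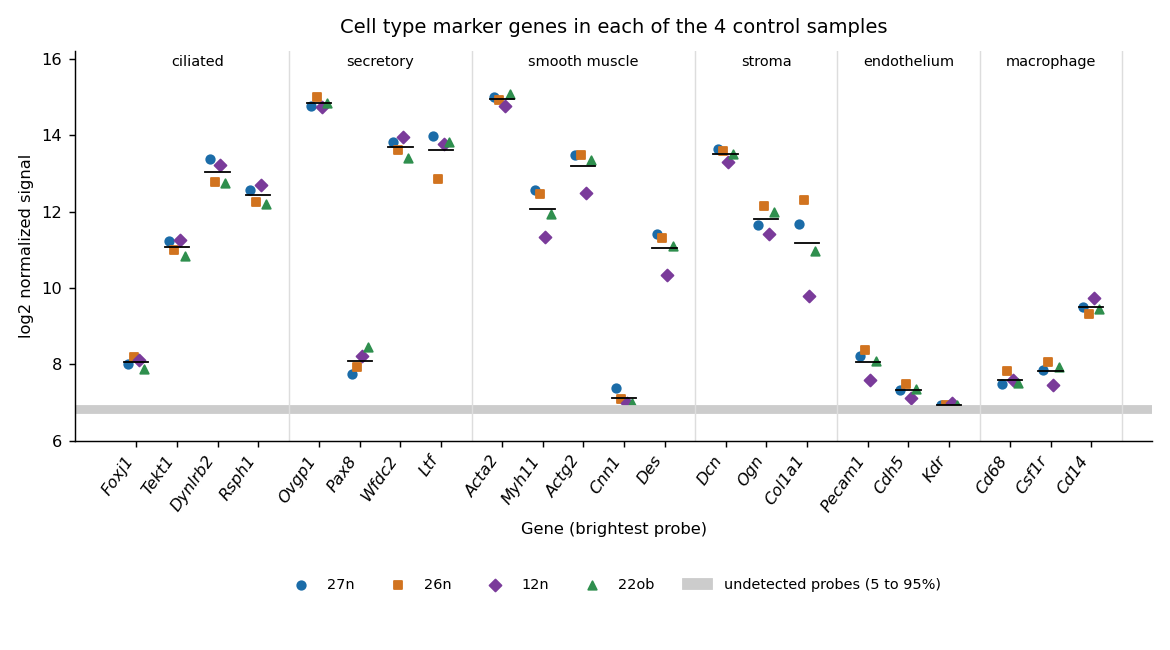
log2 normalized signal of named cell type genes (horizontal axis, brightest probe of each) in the 4 control pools (coloured symbols), with the mean as a black line and the range that holds 90% of undetected probes as a grey band. Pool 12n is the lowest of the 4 for the smooth muscle genes Myh11, Actg2 and Des and for the stromal genes Dcn, Ogn and Col1a1, while Kdr lies just above the grey band.

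Among the immune lists, that of macrophages had the highest share detected (92.3%, against 50.9% of all genes). Its genes were detected in 12 of 13 cases at moderate levels, led by the complement gene C1qb (9.60 ± 0.29), the endotoxin co-receptor gene Cd14 (9.50 ± 0.18), Fcer1g (9.43 ± 0.38) and the lysozyme gene Lyz2 (9.24 ± 0.25), and Itgam was undetected (6.78). T and natural killer cell genes were detected in 3 of 13 cases (Prf1 at 8.27 ± 0.41, Lck at 7.30 and Cd3e at 7.21), while Cd4, Cd8a, Cd2, Nkg7 and Gzmb were detected on no array. B cell genes were detected in 1 of 6 cases (Cd79b at 7.27), and Ms4a1, Pax5, Blk and Jchain were among those detected on no array. Neutrophil genes were detected in 1 of 6 cases (Camp at 7.51), with S100a8, S100a9, Mpo, Elane and Ngp on none.

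Hdc, at rank 19 among genes, is also a gene of mast cells, and the other mast cell genes did not accompany it. None of the other 7 was detected on all 4 arrays: Tpsab1, Tpsb2, Cma1, Mcpt4 and Ms4a2 were detected on no array, at 6.80 to 6.87, and Cpa3 (6.90) and Fcer1a (6.97) on some. The mast cell list thus counted 1 of 8, all of it from Hdc, and no probe value here says which cells hold the Hdc transcript.

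Neuronal (15.4%) and Schwann cell genes (37.5%) were detected less often than all genes (50.9%). How much nerve the tube holds was not measured. Of 13 neuronal genes, Syt1 (7.56 ± 0.10) and Uchl1 (7.17 ± 0.11) were detected, and Snap25, Elavl4, Nefl, Nefm, Gap43, Prph and the catecholamine enzymes Th and Dbh were detected on no array. Of 8 Schwann cell genes, 3 were detected, with Pmp22, which many other cells also express, at 11.03 ± 0.14 and Mbp at 7.87 ± 0.18.

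Receptors for the steroid hormones were measured at low to middle levels, and 7 of 10 (70.0%) were detected, against 50.9% of all genes. The oestrogen receptor gene Esr1 was the brightest at 10.16 ± 0.25, reading 9.91, 10.14, 10.09 and 10.52 by 1 of its probes, and its other probe was detected on no array (6.78). Esr2 was detected by none of its 3 probes (6.84). The nuclear progesterone receptor gene Pgr was at 7.75 ± 0.24, reading 7.44, 7.95, 7.68 and 7.93, a faint signal that was nevertheless above the negative controls in every pool. Among receptors proposed for rapid steroid action, Paqr7 was at 8.73 ± 0.24, Pgrmc1 at 8.62 ± 0.19, Gper1 at 7.26 ± 0.11 and Paqr6 at 7.17 ± 0.08, and Paqr8 was undetected (6.78). Of 8 chaperones and cofactors of these receptors 6 (75.0%) were detected, also against 50.9% of all genes. Hsp90ab1 was at 12.84 ± 0.10 and Fkbp4, a co-chaperone of the progesterone receptor, at 12.68 ± 0.16.

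The endothelin system, peptides that contract smooth muscle together with their receptors and processing enzymes, had 6 of 7 genes detected. This share was 85.7%, against 50.9% of all genes. Among the ligands, Edn1 was at 9.57 ± 0.22 (9.44, 9.36, 9.61 and 9.86), Edn2 was at 7.41 ± 0.13 (7.50, 7.24, 7.54 and 7.39), and Edn3, at 7.005 ± 0.04, was not detected on all 4 arrays. The type A receptor gene Ednra was at 10.67 ± 0.55 (10.78, 11.39, 10.11 and 10.41). The type B receptor gene Ednrb was at 8.65 ± 0.57 by its brightest probe (8.88, 9.29, 7.97 and 8.46), with a second probe detected at 7.34 and the third on no array. Both receptors were highest in 26n and lowest in 12n, as were the list medians of smooth muscle and stroma, and the ligands were not. The converting enzyme genes were at 9.76 ± 0.10 for Ece1 and 7.55 ± 0.11 for Ece2.

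Prostaglandin genes were detected in 8 of 14 cases (57.1%, near the 50.9% of all genes). The transporter gene Slco2a1 (10.53 ± 0.26), the prostacyclin synthase gene Ptgis (9.47 ± 0.32) and the degrading enzyme gene Hpgd (8.99 ± 0.19) were the brightest. Of the 2 cyclooxygenases, Ptgs1 was detected by all 3 of its probes, at 7.37 for the brightest, and the inducible Ptgs2 by neither of its probes (6.81). Ptger2 was detected (7.66 ± 0.12), and Ptger3, Ptger4 and Ptgir were detected on no array. Other receptors and enzymes that set muscle tone were detected in 4 of 15 cases, fewer than the 50.9% of all genes. Among them were the adrenergic receptor gene Adra2a (8.96 ± 0.38), the endothelial nitric oxide synthase gene Nos3 (7.51 ± 0.19) and the angiotensin receptor gene Agtr1a (7.26 ± 0.16). The muscarinic receptor gene Chrm2, the adrenergic Adra1a, Adra1b and Adra1d, and Nos1 and Nos2 were detected on no array.

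Genes that move ions and water into the tubal fluid were detected in 11 of 17 cases (64.7%, against 50.9% of all genes). Among the brighter ones were the cotransporter gene Slc12a2 (12.17 ± 0.05), the sodium pump subunit gene Atp1b1 (11.48 ± 0.21) and the water channel gene Aqp1 (11.31 ± 0.27). The chloride channel gene Cftr was at 10.09 ± 0.56 and read 9.58, 9.63, 10.45 and 10.69, so that 12n and 22ob lay above 27n and 26n. The bicarbonate transporter gene Slc4a4, the exchanger Slc26a3, the sodium channel subunit Scnn1g and Aqp9 were detected on no array.

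Growth factors with roles for the embryo or oocyte were detected in 9 of 18 cases, close to the 50.9% of all genes. Pdgfa (10.69 ± 0.17), Areg (10.14 ± 0.42), Igf1 (10.05, 10.47, 9.38 and 10.12) and Igf2 (9.79 ± 0.56) were the brightest, and Egf, Csf2, Lif, Bdnf, Gdnf and Fgf2 were detected on no array. Of the genes that pattern the Müllerian duct, from which tube and uterus form, 7 of 13 (53.8%) were detected, also close to that share. Wnt5a was at 10.48 ± 0.31, Wnt7a at 8.60 ± 0.07, Pax8 at 8.08 and Wnt4 at 7.83 ± 0.08. Among the HOX genes, Hoxa9, known for the tube, was detected at 7.21 ± 0.14, and so was Hoxa13, known for the lowest part of the tract, at 7.24 ± 0.08 by 1 of its 3 probes. Hoxa10 and Hoxa11, known for the uterus, were detected on no array (6.82 and 6.77).

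Immediate early genes, which cells transcribe within minutes of a stimulus, stood high in these vehicle-treated pieces. Of 21 genes 17 were detected, against 50.9% of all genes, and 11 of them were among the 1000 brightest of the 18138 genes. The median of the list was 11.09, where that of all genes was 7.12. Egr1 read 14.13, 14.30, 13.90 and 14.11. Fos read 13.62, 13.65, 13.60 and 13.58. Dusp1, a phosphatase that ends kinase signals, was at 13.60 ± 0.17 and Ier3 at 13.56 ± 0.13. The 4 pools lay close together for Fos, whose SD of 0.03 was below the 5th percentile of detected probes (0.044). Btg2 and Nr4a1 were detected on no array, and Ier2 and Myc on some but not all. No tissue frozen straight after dissection was among the arrays used here, so levels before the incubation are not known here. All 8 heat shock and stress genes were detected, where 50.9% of all genes were. Hsp90b1 (12.94 ± 0.26), Dnajb1 (12.28 ± 0.08) and Hspa8 (12.17 ± 0.18) led that list.

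Genes of cell division were detected in 13 of 18 cases (72.2%, against 50.9% of all genes). They were mostly at low levels, with a list median of 7.37. The replication genes Mcm4 (10.26 ± 0.15), Mcm6 (8.47 ± 0.08) and Mcm5 (8.25 ± 0.35) and the nucleotide enzyme gene Tyms (8.43 ± 0.26) were the brightest. The mitotic genes Ccnb2, Ccna2 and Bub1 were detected on no array, and Top2a (7.41 ± 0.16), Plk1 (7.57 ± 0.20) and Cdk1 (7.85 ± 0.40) were low but detected.

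Genes of neighbouring tissues were detected in 12 of 66 cases (18.2%, against 50.9% of all genes), and some of these were bright. None of 13 ovarian follicle genes was detected on all 4 arrays, and the aromatase gene Cyp19a1, Amh, Foxl2, Star and Cyp11a1 were detected on no array. Among 11 oocyte genes the zona gene Zp3 was detected (7.13 ± 0.10), close to the detection limit, and Zp1, Zp2, Bmp15 and Ddx4 were detected on no array. Fat genes were detected in 4 of 13 cases. These were Scd1 (10.22 ± 0.24), Cidea (10.02 ± 0.18), Lpl (9.67 ± 0.78) and Cfd (7.36 ± 0.23), whereas Fabp4, Plin1, Cidec, Lep and Retn were detected on no array and Adipoq on some. Red blood cell genes were seen through Hba-a1 (12.22 ± 0.48), Hbb-b1 (8.25 ± 0.27) and Alas2 (7.18 ± 0.09). Of 16 skeletal muscle genes 3 were detected (Tnni2 at 8.57, Mb at 7.87 and Tnnc2 at 7.29), and the myosins Myh1, Myh2 and Myh4 and the kinase Ckm were detected on no array.

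Lists of distant tissues give how often genes known from other tissues were called here. Whether the tube itself transcribes such a gene was not tested. No gene of the liver (11), heart (8), pancreas (8) or intestine (6) lists was detected on all 4 arrays. The exceptions elsewhere were few but 2 were bright. Sftpd, a surfactant collectin of the lung list, was at 11.70 ± 0.49 and read 11.16, 11.43, 12.10 and 12.12, while Sftpa1, Sftpb and Scgb1a1 were detected on no array. Slc12a3, a salt transporter of the kidney list, was at 9.89 ± 0.10 by 1 of its 3 probes, and the other 2 were detected on no array. The rest were Krt10 (9.16 ± 0.12), Ldhc (7.55 ± 0.03), Sftpc (7.50 ± 0.21), Trp63 (7.22 ± 0.12) and Camk2a (7.06 ± 0.03).

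Families gathered by symbol lay at both ends of the scale. Of 1075 olfactory receptor genes 8 were detected (0.7%), all between 7.05 and 7.33, as were 0 of 135 vomeronasal receptor genes, 0 of 21 keratin-associated protein genes and 2 of 34 beta-defensin genes (Defb14 at 7.34 and Defb25 at 7.17). These small counts depend on the rule. At a detection p-value below 0.01 they were 2 olfactory receptors and 0 beta-defensins, and with at least 3 of 4 arrays 17 and 4. Leaving out 1 pool gave 9 to 13 olfactory receptors. At the other end, 55 of 63 genes of the cytosolic ribosome (87.3%) and 67 of 77 of the respiratory chain (87.0%) were detected. The undetected members included Rpl6 (6.91), Rpl17 (6.72), Rplp2 (6.80), Rps23 (6.76) and Ndufs1 (6.77), which dividing and resting cells alike require. A gene undetected here is therefore one whose probe gave no signal above the negative controls, not one shown to lack RNA. Probes of 1 gene also disagreed: of 4949 genes with 2 or more probes, 1283 (25.9%) had a probe detected on all 4 arrays and another on none.

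By chromosome, 39.9 to 54.6% of the probes on an autosome were detected, 40.8% on the X chromosome and 2 of 20 on the Y chromosome. Of 8 Y-linked genes Ddx3y was detected, by 1 of its 3 probes (7.98 ± 0.27), and Eif2s3y, Kdm5d, Sry, Zfy1, Zfy2 and Usp9y were detected on no array. Ddx3y has a close copy on the X chromosome, and whether its probe reads that copy was not tested. Xist, the RNA of the inactive X chromosome, was detected (9.35 ± 0.27) in these samples, which are labelled female.

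After quantile normalization the 4 pools differed little for most genes. The SD over the pools had a median of 0.13 for detected probes, with 90% of probes between 0.044 and 0.325. In all, 108 probes exceeded 0.5. The median SD was larger with other scalings, at 0.258 without normalization and 0.209 after normexp background correction. Col1a1, a chain of type I collagen, had the largest SD among detected genes and read 11.67, 12.30, 9.80 and 10.97. Elastin, Eln, read 8.86, 9.95, 7.76 and 8.19. Mfap4, of elastic microfibrils, read 10.92, 11.24, 9.43 and 9.83. In all 3 genes 26n was the highest and 12n the lowest. Among the 20 genes with the largest SD the same held for Col5a1, Col6a1, Col6a2, Col4a2, Col15a1, Lpl, Htra3, Mmp2 and Mfap2. Pool 26n was the highest in 13 of the 20 and 12n the lowest in 12. A smaller group was lowest in 26n instead, namely the cytochrome gene Cyp2a5 (8.57, 7.52, 9.28 and 8.47), Dbp, Inmt, Slc46a3 and AU042651. Syn2 and Lrat were lowest in 27n and highest in 22ob, and Col4a5 was highest in 26n.

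**Figure D4:**
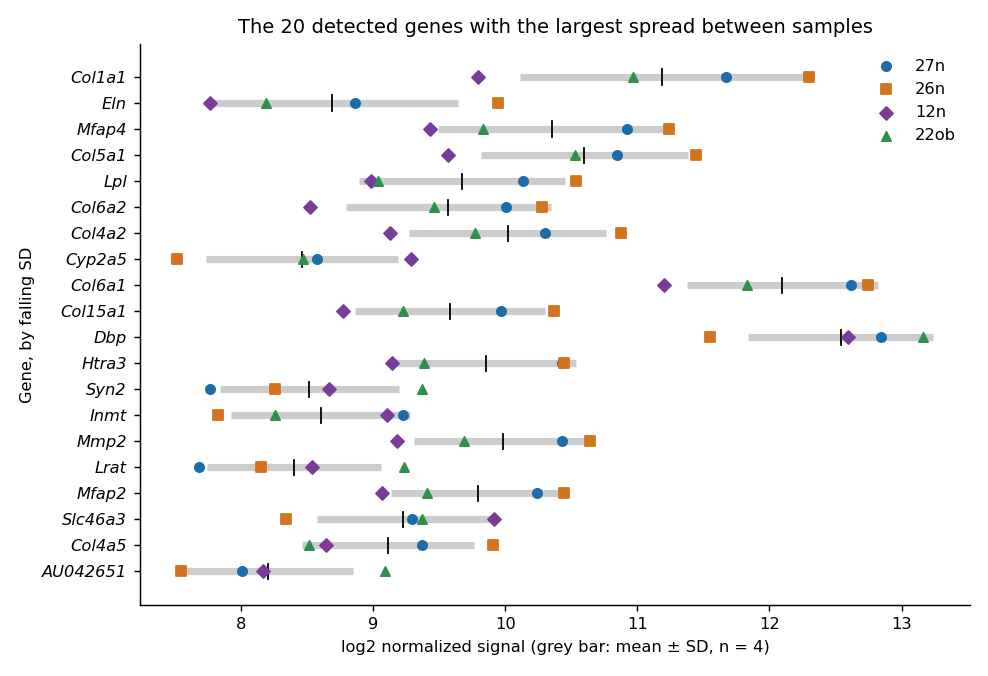
log2 normalized signal in each of the 4 control pools (coloured symbols) of the 20 detected genes with the largest SD, with the mean as a black tick and mean ± SD (n = 4) as a grey bar. Pool 26n is the highest in 13 of the 20 genes and pool 12n the lowest in 12.

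Several lists also differed between pools. For each array, the median difference of all detected genes from their own means was first subtracted. Pool 12n was then the lowest for 14 of 15 stromal genes, 11 of 12 smooth muscle genes, 13 of 13 endothelial genes and 6 of 6 pericyte genes. It was the lowest for 27.8% of all detected genes. The median smooth muscle gene read 0.59 below its own mean in 12n and 0.34 above it in 26n. The median stromal gene read 0.47 below in 12n and 0.47 above in 26n. Ciliary genes ran the other way, with 12n the highest for 21 of 28 against 26.5% of all detected genes, and a median of 0.22 above the mean. Pool 12n was also the highest for 9 of 17 general epithelial genes. For secretory genes 12n and 22ob were each the highest in 5 of 13 cases. Pool 22ob was the lowest for 15 of the 28 ciliary genes, against 22.2% of all detected genes, and the highest for 8 of 11 detected tubal fluid genes, against 24.4%. Mesothelial genes were lowest in 26n in 4 of 6 cases, against 24.5%, and genes of cell division were highest there in 12 of 13, against 26.2%. These genes share arrays and are not independent, and in whole tissue a smaller number of cells of a type and less RNA per cell cannot be told apart. Each pool is 1 control array, and the progesterone arrays that carry the same replicate names were not used here to check differences between pools.

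**Figure D5:**
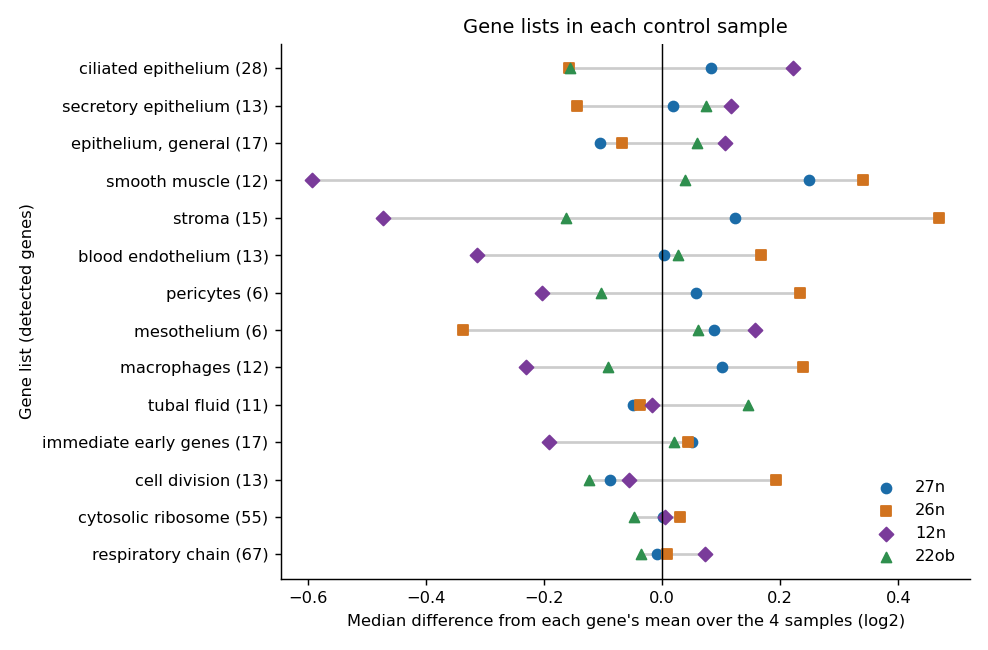
Median difference (log2, horizontal axis) of the detected genes of each list (number in brackets) from their own mean over the 4 control pools, one coloured symbol per pool. Each array's median difference over all detected genes was subtracted first. Pool 12n lies farthest to the left for smooth muscle (-0.59), stroma (-0.47), endothelium and pericytes and farthest to the right for ciliated epithelium, whereas the ribosome and respiratory chain lists lie between -0.05 and 0.07 in all 4 pools.

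The median ribosomal gene lay between -0.05 and 0.03 from its mean in the 4 pools, and 12n was the highest for 19 of 55 and the lowest for 12. The median respiratory chain gene lay between -0.04 and 0.07 from its mean. Pool 12n was the highest for 33 of these 67 genes (49.3%, against 26.5% of all detected genes) and the lowest for 9 (13.4%, against 27.8%). Macrophage genes were highest in 26n in 8 of 12 cases (26.2% of all) and lowest in 12n in 7, while Cd14 was highest in 12n and lowest in 26n. Immediate early genes were lowest in 12n in 12 of 17 cases. No agent differed between the 4 pools by their labels.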

How the data were processed

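Illumina MouseRef-8 v2 bead arrays were hybridised with amplified RNA from 16 samples, of which the 4 vehicle controls of 20 min (27n, 26n, 12n and 22ob, as the labels name them) are described. The authors exported from GenomeStudio the signal of each probe, an intensity that was deposited without background subtraction or normalization, and a detection p-value, deposited beside it, which is the share of the 798 negative controls that were brighter. The gene symbols are those of the array table and can be old. Its genome build is not given in the sources used here.

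Intensities were quantile normalized over all 16 arrays with limma 3.58.1 under R 4.3.3, and their log2 was taken with no offset. Detection required a p-value below 0.05 on all 4 arrays. A gene was detected when any of its probes was, and its brightest probe stood for it. Of 535 entries in 43 gene lists, 488 had a probe, 22 of them through a RefSeq synonym, and 47 had no probe under their symbol in the table used here. The other 6 lists were families gathered by symbol, from which ribosomal kinases and binding proteins were left out. The members and lists were chosen with earlier results of these data known. Named genes were the 5 markers, the 30 brightest, in each list up to 4 of the brightest and those detected on no array, the 20 with the largest SD, the endothelin genes and Pgr, except that some genes are not reported here. Others are said to have been chosen after their values were seen, as were undetected or further members given to complete a list.

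No groups were compared and no p-value was computed. A pool that stood apart from the other 3 was found by Dixon's criterion for 4 values. The steps were tested on simulated data, and Python 3.11.15 (pandas 2.3.3, numpy 2.4.6, matplotlib 3.10.9) was used. Promoter sequences are RefSeq's. Alternatives were normalization over the 4 arrays, none, normexp background correction, a detection p-value below 0.01, detection on at least 3 arrays, the brightest probe alone, probes with a definition alone, and leaving out each pool. By the study's methods the control and exposed arms each received 1 tube of every mouse, and the 6 tubes of a sample are also given as those of 3 animals; these accounts differ, and the number of mice behind a pool is not settled here. The SD measures the spread between these pools.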

Additional observations from a re-analysis of the deposited data

Results flagged for a closer look

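For 168 named genes and 10 measures of the arrays, the gap between the highest or lowest pool and its nearest neighbour was set against the range of all 4 pools. In 8 of these 178 values 1 pool stood apart, and chance alone gives about 1 in 20. Pool 12n stood apart 3 times: Actg2 read 12.49 there and 13.36 to 13.49 in the others, the fast muscle gene Tnnc2 read 7.17 against 7.31 to 7.34, and the growth factor gene Areg read 10.77 against 9.88 to 9.96. Pool 26n stood apart 3 times: Mcm5 read 8.78 there against 8.05 to 8.10, the erythroid enzyme gene Alas2 read 7.32 against 7.12 to 7.14, and the mesothelial gene Upk3b read 9.40 against 9.88 to 9.92. The heat shock gene Hspb1 read 12 in 22ob and 11.76 to 11.77 in the others. Rpl41 read 15.09 in 27n and 14.89 in the other 3, values fixed by the top ranks of a quantile-normalized array.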

How the results depend on the processing

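The counts of detected probes, undetected probes and detected genes stayed within 1.5 times of their main values under every alternative tried for them, as did all list counts except those that follow. At a detection p-value below 0.01 the olfactory receptors fell from 8 detected genes to 2, the beta-defensins from 2 to 0, the epidermis list from 2 to 1, the neurons from 2 to 1, and the oocyte and brain lists from 1 to 0. With detection on at least 3 of 4 arrays the counts were 17 for olfactory receptors, 4 for beta-defensins, 2 for oocyte genes and 1 for intestinal genes. Leaving out each pool in turn gave 9 to 13 olfactory receptors, 1 to 2 oocyte genes and 0 to 1 intestinal genes. The brightest 100 probes gave 14.4% of the summed normalized signal, 14.01% with normalization over the 4 arrays, 14.06% without normalization, 17.69% after normexp correction, and 18.12% of the signal above the median negative control, a measure chosen after seeing the data. The median SD of detected probes was 0.133, 0.258 without normalization and 0.209 after normexp correction. Means of the 168 named detected genes moved by over 1 SD in 59 cases after normexp correction, 2 without normalization and 5 with normalization over the 4 arrays. The direction of the list medians in pools 12n and 26n held under all 4 scalings for smooth muscle, stroma, endothelium and ciliated epithelium (an addition made after seeing the data). Without normalization the median difference of detected genes from their own means lay between -0.32 and 0.19 on the arrays. Detection of faint genes near 7 is limited by the signal of the negative controls. No paired analysis was possible because the description is limited to 1 group, the controls of 20 min. The progesterone arrays with the same replicate names were left out by that scope.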

Other observations

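Values of other genes known from the circadian clock were looked up after Dbp had appeared among the 20 most variable genes. They come from no fixed list and were not tested as a group, and 26n was the lowest pool for 24.5% of all detected genes. Dbp, a transcription factor driven by the clock, read 12.84, 11.55, 12.59 and 13.16 in 27n, 26n, 12n and 22ob, lowest in 26n and highest in 22ob as Dcpp1, Dcpp2 and Dcpp3 were. Pool 26n was also the lowest for Tef (9.86, 9.33, 10.09 and 10.01), for Per2 by its brightest probe (9.66, 8.91, 9.90 and 9.77), for Nr1d2 (8.96, 8.67, 9.45 and 9.16), for Cry2 (8.66, 7.998, 8.21 and 8.20) and, by little, for Per3 (7.08, 7.06, 7.42 and 7.32). Arntl was the highest in 26n (7.14, 7.44, 7.05 and 7.06). Per1 (9.32, 9.46, 9.39 and 9.62), Nr1d1 (8.02, 7.68, 7.61 and 7.75) and Clock (9.58, 9.65, 9.48 and 9.73) did not have 26n as their lowest pool.

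Nnt, the mitochondrial transhydrogenase gene that is known to be disrupted in the C57BL/6J substrain, was looked up because the labels name C57BL/6N. Its 3 probes were detected on no array of the 4, at mean log2 signals of 6.84, 6.78 and 6.70. Probes of other widely needed genes were undetected too, as described for the ribosome and the respiratory chain, and whether these 3 probes read the transcript was not tested.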
